A study of Mus musculus with 28 samples.

Results

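The genes described here are those of the DNA replication machinery of mouse colon organoids, 51 genes listed by name for their role at the origin, at the fork, in nucleotide supply or at the G1/S switch. All 51 were among the 13519 genes counted, and they fall into 9 role groups on 15 chromosomes. After Cre was switched on with 4-hydroxytamoxifen (4-HT), 16 of them rose in organoids that lost *Apc* alone (AC, 3.00% of all genes), 42 in organoids that also gained mutant p53 (PAC, 11.2%), and 47 in each of the 2 genotypes that also gained BRAF V600E (BAC, 20.3%, and BPAC, 22.0%). AC had 2 samples per treatment and the others 4. The median change was no larger in PAC (0.57 on the log2 scale) than in AC (0.62), and without 2 PAC cultures whose libraries are in doubt the 42 became 0. No member fell in any of the 4 genotypes with edgeR's quasi-likelihood test, where 4.25%, 12.2%, 21.5% and 23.0% of all genes fell, while *Ccne2* fell in BAC and BPAC once the culture was added to the fit.

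The organoids were 3-dimensional cultures of colon epithelium from C57BL/6N mice. By the labels, AC organoids (*Apc* flox/flox, *Villin::CreERT2*) came from 1 donor mouse, and PAC organoids (AC with *Trp53* LSL-R172H/+), BAC organoids (AC with *Braf* floxV600E/+) and BPAC organoids (AC with both) from 2 donor mice each. The methods of the study describe a pair of donor mice for every genotype, AC included, so whether the AC duplicates share a mouse is uncertain. Each of the 7 donors in the labels gave 2 cultures, called duplicates 1 and 2 and described in the study as separate passages, and each of the 14 cultures was treated for 24 hours either with 3.5 µM 4-HT or with its solvent ethanol (EtOH), with RNA taken 3 days later. This made 28 bulk RNA-seq samples, of which AC had 2 under each treatment and every other genotype 4. Every group carried the floxed *Apc* alleles and the Cre, which the *Villin* promoter drives in epithelial cells, and the EtOH samples carried the same alleles in the unrecombined state. No organoids with wild-type *Apc* are among the samples, so an effect of 4-HT itself and that of recombination cannot be told apart. The culture medium held EGF, R-spondin, Wnt3a and the GSK3 inhibitor CHIR99021. The ages of the mice are not given in the sources used here.

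Replication is prepared in G1, when the origin recognition complex (ORC), CDC6 and CDT1 load the MCM2-7 helicase onto DNA as an inactive double ring. At the G1/S transition cyclin E with CDK2 and E2F transcription factors switch on the program, CDC45 and the GINS complex convert the helicase into its active form, and primase with DNA polymerase alpha starts each new strand, which polymerases epsilon and delta then extend with the PCNA clamp. In the colon, dividing cells lie at the crypt base, where WNT signaling, restrained by APC, keeps them cycling, and mature colonocytes no longer replicate their DNA.

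Sequencing depth was 20577276 to 40068718 counted reads in a sample. The markers of epithelium were all present, with a summed level of 16979 to 27583 counts per 1000000 reads (CPM, after normalization by the trimmed mean of M-values, TMM) in EtOH and 15276 to 20823 CPM in 4-HT samples. Of 7 fibroblast markers *Pdgfrb*, of 7 immune markers *Cd3e* and *Cd74* and of 3 endothelial markers *Pecam1* were in the table, and the summed levels were at most 13.7, 2.47 and 2.71 CPM. The summed level of 5 markers of differentiated colonocytes was 13443 to 22555 CPM with EtOH and 2754 to 9666 CPM with 4-HT, and that of 5 goblet cell markers was 1455 to 3562 CPM and 937 to 1950 CPM. Every 4-HT sample thus held less RNA of the colonocyte markers than every EtOH sample, a shift that went with each rise given below, and its part in those rises was not tested. The summed levels of the goblet cell markers overlapped between the treatments, and these 5 genes did not all move alike. Their lowest log2 fold change was -0.83, -0.92, -1.66 and -1.68 in AC, PAC, BAC and BPAC, and their highest 0.49, 1.18, -0.07 and 0.56. In bulk RNA, more cells in S phase and more RNA per cell cannot be told apart.

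*Trp53* counts with EtOH followed the labels, being lower in the genotypes that carry the LSL allele. The stop cassette of that allele blocks its transcription until Cre removes it. With EtOH the gene was at 51.9 to 66.0 CPM in PAC and 51.4 to 60.1 CPM in BPAC, against 108 to 115 CPM in AC and 97.9 to 122 CPM in BAC. With 4-HT it was at 155 to 178, 148 to 227, 181 to 193 and 197 to 226 CPM in PAC, BPAC, AC and BAC. It was thus also higher with 4-HT where no LSL allele is present, and the reason was not tested. Gene-level counts of *Apc* did not show the deletion, since they stood at 37.4 to 39.1 CPM with EtOH and at 70.7 to 73.8 CPM with 4-HT in AC, and *Braf* counts cannot show a point mutation.

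A pair of libraries stood apart from their labels. The 4-HT samples of PAC duplicate 1, labelled as donors Col290 and Col313, held 834 and 636 counts of *Xist* and 1822 and 1543 of Y-linked genes. No other sample held more than 50 counts of both. The other Col290 samples had 0 to 7 counts of *Xist* and 2499 to 3731 of Y-linked genes. In the other Col313 samples these counts were 1495 to 2402 and 0. The doubtful libraries were also the closest pair of samples within a group (mean chi-square per gene 2.38, against 8.53 for the next closest). Each of them may thus hold RNA of both donors, and they may not be separate donors. Most PAC counts, and the PAC values of most members described, are therefore given with and without the duplicate 1 cultures.

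Replication genes took up a larger share of all counts after 4-HT. The 51 genes together made up 0.1891 to 0.2622% of the counts in the 14 EtOH samples, 0.3308 to 0.4176% in the 6 4-HT samples without the *Braf* allele and 0.4264 to 0.5389% in the 8 4-HT samples with it, and these 3 ranges do not overlap. The change was shared widely among the members. In 47 of the 51 genes the 4-HT sample was above the EtOH sample of the same culture in 14 of 14 cultures, in 2 genes in 13, in *Orc3* in 11 and in *Ccne2* in 1, while 18.5% of all genes were higher in 14 of 14. Without the PAC duplicate 1 cultures 48 members were higher in 12 of 12, as were 19.7% of all genes.

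**Figure D1:**
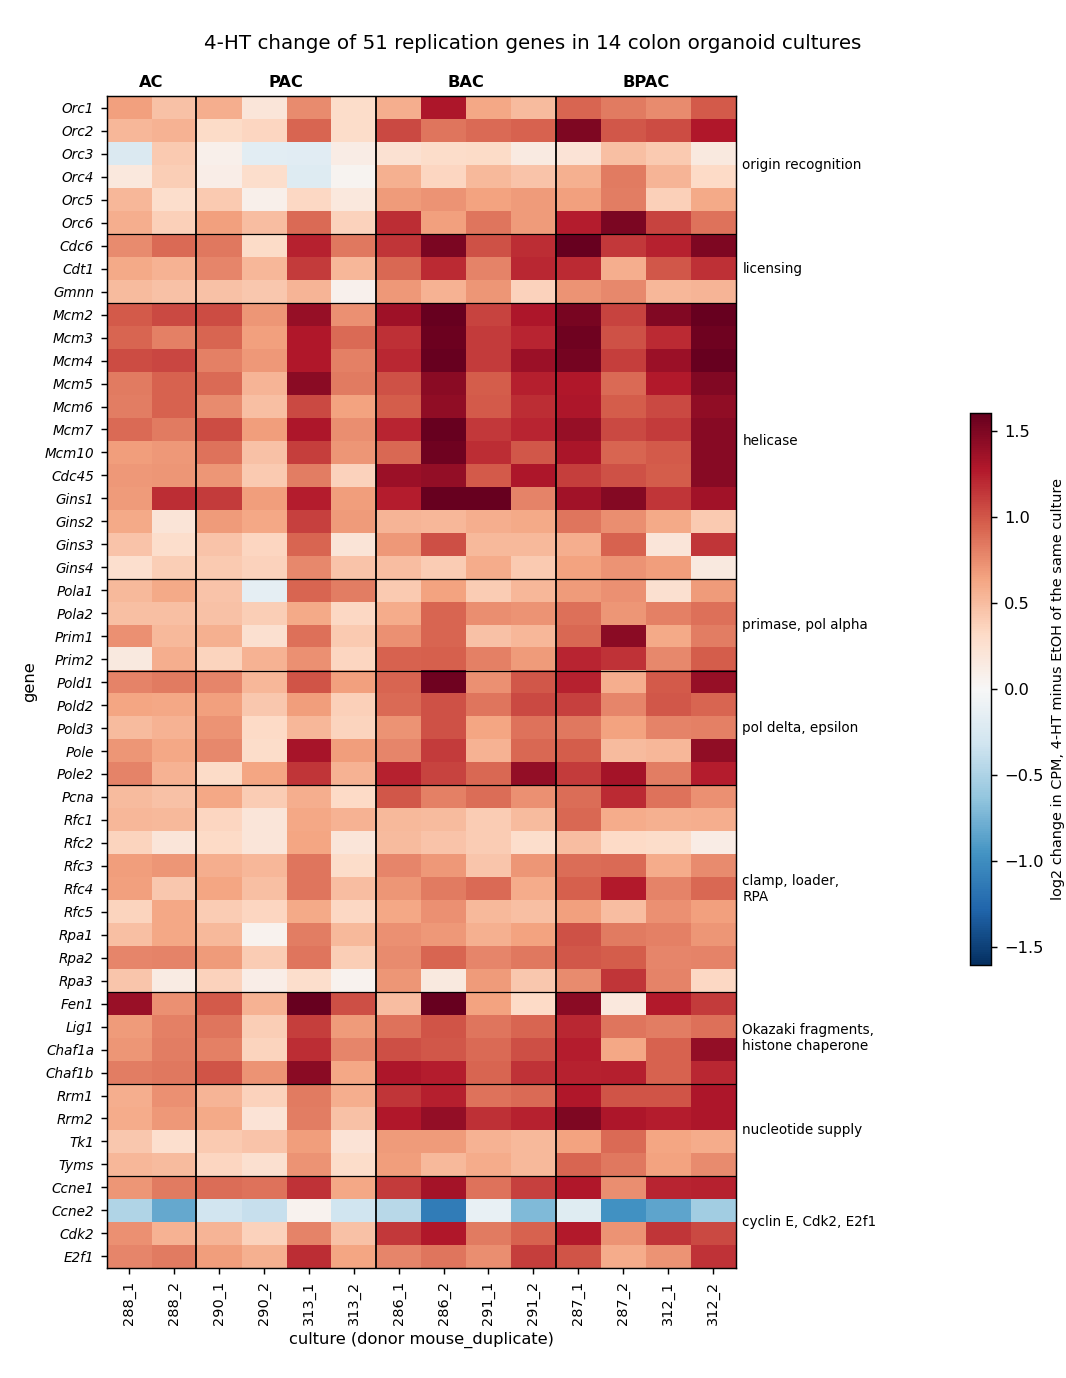
Change in log2 CPM from EtOH to 4-HT of the same culture (color) for the 51 replication genes (rows, grouped by role) in the 14 cultures (columns, grouped by genotype). Red marks a rise, and the row of *Ccne2* is the one that is blue in 13 of 14 cultures.

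Under edgeR's quasi-likelihood test with Benjamini-Hochberg adjustment over all 13519 genes and a threshold of 0.01, the 16 members that rose in AC compare with 3.00% of all genes that rose there. In PAC 42 members rose against 11.2% of all genes, in BAC 47 against 20.3% and in BPAC 47 against 22.0%. For AC, PAC, BAC and BPAC the median log2 fold change of the 51 members was 0.62, 0.57, 0.85 and 0.94, and that of all genes 0.01, -0.03, -0.04 and -0.04. AC had 2 samples per treatment, and with the culture as a replicate block 32 members rose there, against 7.45% of all genes, while a fit of AC alone called 3, against 0.274%. Without the duplicate 1 cultures 0 of the 51 members passed in PAC with edgeR, where 0.163% of all genes rose (13 with the replicate block, against 3.03%, and 35 with an unadjusted p under 0.05, against 23.9% of all genes), with a mean of the culture medians of 0.44 against 0.59 with them. Without donor Col313 the PAC count was 0 as well (1.15% of all genes), without its duplicate 1 culture it was 22 (5.11%) and without donor Col290 it was 25 (3.68%). Here and below, donors are left out by label. As the doubtful libraries may each hold RNA of both donors, such a fit may not fully remove Col290 or Col313.

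The samples of the 2 treatments were separate for most members. Every 4-HT sample lay above every EtOH sample for 48 members in AC (29.4% of all genes did so with 2 samples per treatment), for 40 in PAC (16.0%), for 49 in BAC (25.7%) and for 48 in BPAC (22.5%). With the PAC duplicate 1 cultures left out, which leaves 2 samples per treatment, the PAC count was 45 (28.6% of all genes). Across the whole study, 29 members were higher in each of the 14 4-HT samples than in each of the 14 EtOH samples, against 5.64% of all genes, and 29 were so in the 12 samples of each treatment without those cultures (6.16%). A total of 16 members rose in all 4 genotypes, where 2.66% of all genes did: *Cdc6*, *Mcm2*, *Mcm3*, *Mcm4*, *Mcm6*, *Mcm7*, *Gins1*, *Pold1*, *Pold3*, *Rfc5*, *Lig1*, *Rrm1*, *Rrm2*, *Tyms*, *Cdk2* and *E2f1*. The PAC calls of these 16 were lost without the PAC duplicate 1 cultures. With edgeR 0 members then rose in all 4 (0.141% of all genes), and with the replicate block 12 did (2.29%). All 16 are also the members that rose in AC, BAC and BPAC (2.82% of all genes). Another 24 rose in PAC, BAC and BPAC and 6 in BAC and BPAC, *Rfc2* rose in PAC and BAC, *Fen1* in PAC and BPAC, and *Orc3*, *Pola1* and *Ccne2* passed in none.

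Since these genes moved together, their promoters were searched for the core of the E2F binding site, the element through which E2F factors act on S-phase genes. RefSeq promoters of GRCm38.p6, 250 bases before to 50 after each start, matched 42 of the 51 members with 50 entries. At least 1 of 4 spellings of the core, on either strand, was present in 58% of the 50 entries and in 16.3% of the 12921 promoters of all counted genes. The spelling TTCCCGC was present in 38% against 8.09%, TTCGCGC in 14% against 2.9%, TTGCCGC in 6% against 2.82% and TTGGCGC in 20% against 4.16%, and the last and the second of these can overlap on opposite strands. CCAAT was present in 54% against 37.8%, the GC box GGGCGG in 74% against 61.5% and the cell cycle element TTTGAA or TTTAAA in 20% against 19.5%, all searched on either strand. The median GC content was 61.8% against 60.7%. The 27 members with an E2F core had a median change of 0.84 (log2 fold change, mean of 4 genotypes) and the 15 without had 0.77. A match is a run of letters and no measured binding.

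The stretches below are from those of the 16 members that rose in AC, BAC and BPAC, and in PAC with all its cultures, which hold an E2F core before the start, from 15 bases before the first match to 15 after the last or to the start, with the core in capitals on the gene's strand. *Mcm6* (chr1:128359727-128359829, minus strand, last base 21 bases before the start) is shown because it holds a pair of sites, in each of which TTGGCGC and the reverse complement of TTCGCGC overlap. *Cdc6* (chr11:98907998-98908034, plus strand, 116 bases before the start), *Rrm1* (chr7:102441613-102441649, plus strand, 45 bases before) and *Rrm2* (chr12:24708004-24708040, plus strand, 213 bases before) have 1 each, as has the downstream of the starts of *Mcm7* (chr5:138171358-138171394, minus strand, 91 bases before). *Mcm2* (chr6:88898781-88898880, minus strand, the 100 bases before the start) had the largest mean change of all members and holds no core. None of the stretches printed overlaps an exon in GENCODE vM21. Those of *Cdk2* (2 matches) and of the upstream start of *Mcm7* (1 match) overlap exons, of *Pmel* and of *Ap4m1* and *Mcm7*, and are not printed.
Mcm6: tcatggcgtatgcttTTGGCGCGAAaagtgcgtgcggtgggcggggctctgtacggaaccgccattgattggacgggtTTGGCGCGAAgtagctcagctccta
Cdc6: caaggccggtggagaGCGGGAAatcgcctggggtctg
Rrm1: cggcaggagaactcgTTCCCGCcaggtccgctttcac
Rrm2: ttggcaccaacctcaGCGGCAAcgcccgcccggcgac
Mcm7 (downstream start): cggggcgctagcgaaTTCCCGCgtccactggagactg
Mcm2: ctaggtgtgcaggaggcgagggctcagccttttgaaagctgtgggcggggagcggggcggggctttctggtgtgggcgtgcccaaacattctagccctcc

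The helicase genes had the highest median change of the 9 role groups in AC, BAC and BPAC, and in PAC the group of Okazaki fragment joining and histone deposition stood above them (0.87). Without the PAC duplicate 1 cultures the helicase median was the higher of these in PAC as well (0.66 against 0.62). MCM2 to MCM7 form the ring that unwinds DNA, MCM10 helps to activate it, and CDC45 and the 4 GINS proteins complete it. Of the 12 genes in the group, 6 rose in AC (9 with the replicate block), 11 in PAC and 12 in each of BAC and BPAC, with a median log2 fold change of 0.87, 0.84, 1.20 and 1.22. For comparison, 3.00% of all genes rose in AC (7.45% with the block). In the other 3 genotypes 11.2%, 20.3% and 22.0% did, and the counts of the groups that follow stand against the same shares. In PAC 0 of the 12 passed once the duplicate 1 cultures were left out (7 with the replicate block). Among them *Mcm2* (ENSMUSG00000002870, chr6:88883474-88898780, minus strand) was at 76.3 and 64.4 CPM in the AC cultures with EtOH and at 151 and 134 CPM with 4-HT. In BAC it was at 86.0, 57.6, 109 and 86.1 CPM with EtOH and at 221, 194, 231 and 212 CPM with 4-HT, in the order of donor Col286 duplicates 1 and 2 and donor Col291 duplicates 1 and 2. In BPAC the EtOH samples were at 87.8, 79.3, 85.1 and 60.9 CPM and the 4-HT samples at 252, 168, 238 and 205 CPM, in the order of donors Col287 and Col312, so that the highest 4-HT samples of the gene were in BPAC. In PAC it was at 78.9, 72.6, 65.0 and 77.3 CPM with EtOH and at 163, 118, 171 and 129 CPM with 4-HT, in the order of donors Col290 and Col313. In every genotype the 4-HT samples lay above the EtOH samples, and over all 28 samples the lowest with 4-HT (118 CPM) was just above the highest with EtOH (109 CPM). The log2 fold change of *Mcm2* was 1.02 ± 0.22 (SE, n = 2 samples per treatment, edgeR adjusted p = 0.00341) in AC, 0.99 ± 0.16 (n = 4, adjusted p = 6.14e-05) in PAC, 1.34 ± 0.16 (n = 4, adjusted p = 2.01e-07) in BAC and 1.46 ± 0.16 (n = 4, adjusted p = 4.42e-08) in BPAC, the largest rise of any member in BPAC. Without the duplicate 1 cultures the PAC value of *Mcm2* was 0.72 (adjusted p = 0.0558, and 0.00517 with the replicate block).

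*Mcm4* was close to *Mcm2* in every genotype, with log2 fold changes of 1.05 ± 0.19, 0.89 ± 0.13, 1.33 ± 0.13 and 1.41 ± 0.14 in AC, PAC, BAC and BPAC. In BAC the largest rise of any member was that of *Gins1*, a GINS subunit, with 1.35 ± 0.16 (SE, n = 4, edgeR adjusted p = 2.54e-07), from 5.09, 3.15, 3.90 and 5.81 CPM to 12.2, 10.8, 12.6 and 10.2 CPM. The other GINS genes did not move as far. *Gins2* had 0.44 ± 0.24 in AC (adjusted p = 0.222, not called), 0.77 ± 0.17 in PAC, 0.57 ± 0.17 in BAC and 0.66 ± 0.17 in BPAC. *Gins4* had 0.32 ± 0.17 (not called), 0.50 ± 0.12, 0.48 ± 0.12 and 0.55 ± 0.12. *Cdc45* stood at 0.70 ± 0.19 in AC (adjusted p = 0.0153, and 0.00228 with the replicate block), 0.59 ± 0.14 in PAC, 1.25 ± 0.14 in BAC and 1.13 ± 0.14 in BPAC. Whether the GINS genes differ among themselves in their change was not tested. With these cultures left out, the PAC values of *Mcm4*, *Gins1*, *Gins2*, *Gins4* and *Cdc45* were 0.75, 0.67, 0.65, 0.42 and 0.39, none of them called. *Mcm4* and *Gins2* were called with the block (edgeR adjusted p = 0.0031 and 0.00353).

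**Figure D2:**
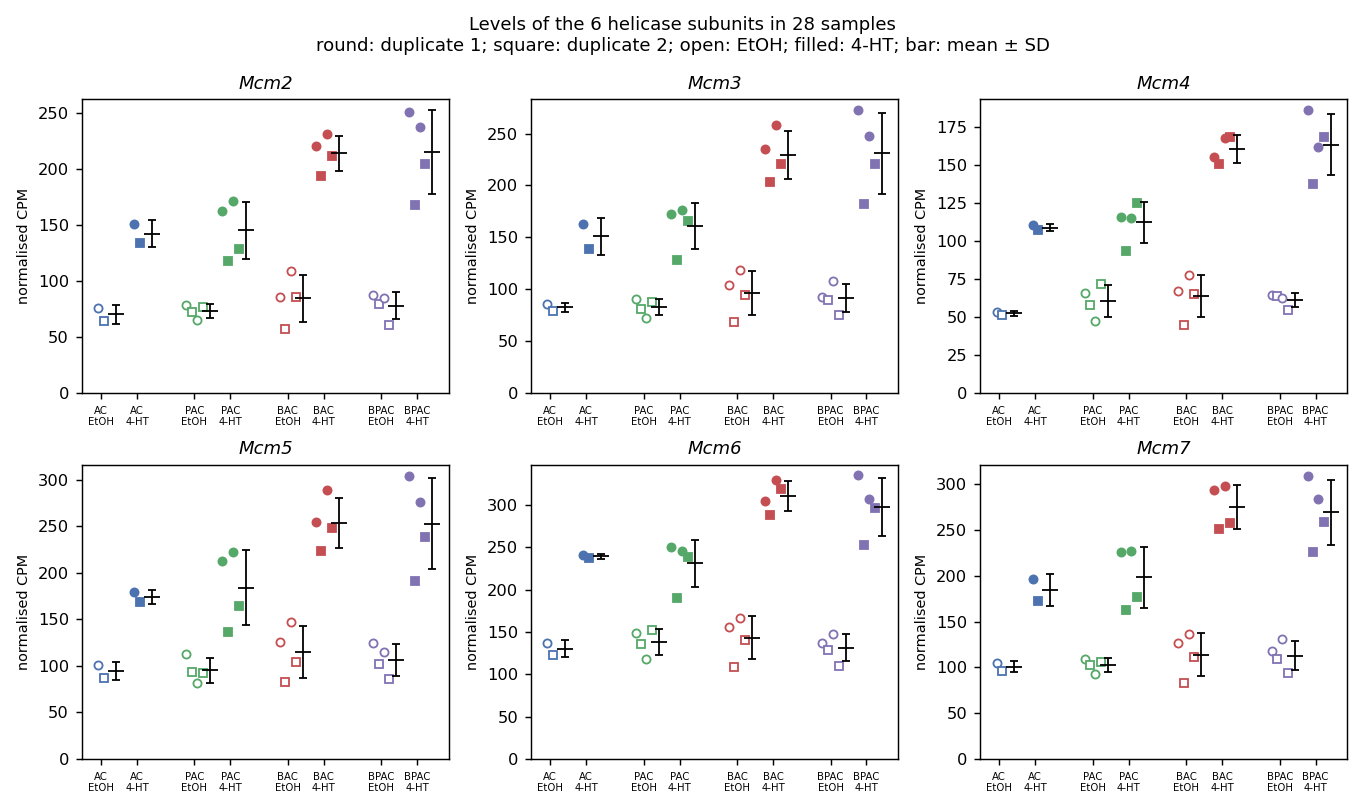
Normalised CPM (linear axis from 0) of *Mcm2* to *Mcm7* in the 28 samples, by genotype and treatment, with each culture as a point and the mean ± SD (n = 2 for AC, n = 4 otherwise) as a bar. In all 6 panels the 4-HT samples lie above the EtOH samples of their genotype, and with 4-HT the means of BAC and BPAC lie above those of AC and PAC.

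The origin recognition genes had median changes of 0.44, 0.35, 0.70 and 0.75 in AC, PAC, BAC and BPAC. ORC, built of ORC1 to ORC6, marks the origin, and of its 6 genes 0 rose in AC with edgeR, limma-voom, DESeq2 or the replicate block (4 had an unadjusted p under 0.05, as had 30.8% of all genes), 2 in PAC (3 with the block) and 5 in each of BAC and BPAC (6 in BPAC with the block). *Orc6* had the values 0.49 ± 0.17 in AC (not called), 0.61 ± 0.12 in PAC, 0.85 ± 0.12 in BAC and 1.16 ± 0.12 in BPAC. *Orc2* is described with the *Braf* allele. *Orc3* was the flat member of the complex. It was at 28.3 and 22.2 CPM in AC with EtOH and at 24.1 and 29.7 CPM with 4-HT, with a log2 fold change of 0.09 ± 0.15 in AC, -0.03 ± 0.10 in PAC, 0.25 ± 0.10 in BAC (edgeR adjusted p = 0.0476) and, at its largest, 0.32 ± 0.10 in BPAC (adjusted p = 0.0127, and 0.00761 with the replicate block). *Orc4* stood next to it in PAC with 0.06 ± 0.11, and rose in BAC and BPAC (0.47 ± 0.11 and 0.56 ± 0.11). In PAC 0 of the 6 passed without the duplicate 1 cultures, with or without the block. *Orc2* and *Orc6* were then at 0.31 and 0.43.

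Of the licensing factors, which load the helicase in G1, *Cdc6* rose in all 4 genotypes, in PAC only with the duplicate 1 cultures included. Its log2 fold change was 0.83 ± 0.19 in AC (SE, n = 2, edgeR adjusted p = 0.00466), 0.79 ± 0.14 in PAC, 1.20 ± 0.14 in BAC and 1.41 ± 0.14 in BPAC, where the 4 cultures went from 14.9, 15.2, 18.0 and 13.9 CPM to 49.3, 33.5, 42.3 and 39.6 CPM. *Cdt1* had 0.59 ± 0.22 in AC (adjusted p = 0.063, and 0.00962 with the replicate block), 0.76 ± 0.15 in PAC, 1.00 ± 0.15 in BAC and 1.00 ± 0.15 in BPAC. The inhibitor of CDT1, geminin (*Gmnn*), rose as well in PAC, BAC and BPAC, with 0.39 ± 0.12, 0.59 ± 0.12 and 0.64 ± 0.12, and had 0.49 ± 0.16 in AC (adjusted p = 0.041, and 0.00592 with the replicate block). None of the licensing genes passed in PAC without the duplicate 1 cultures. There *Cdc6* had 0.58 (edgeR adjusted p = 0.0593, and 0.0215 with the block), *Cdt1* 0.53 (0.127 and 0.0154) and *Gmnn* 0.26 (0.309 and 0.138).

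Among the enzymes that start and extend the strands, 0 of 4 primase and polymerase alpha genes rose in AC with edgeR or limma-voom (1 with DESeq2, where 5.40% of all genes rose, 1 with the replicate block, and 2 with an unadjusted p under 0.05) and 3 in each of PAC, BAC and BPAC. The primase subunits *Prim1* and *Prim2* had 0.91 ± 0.13 and 1.02 ± 0.12 in BPAC and 0.63 ± 0.19 and 0.36 ± 0.17 in AC, where neither was called. Both were called in PAC and BAC. As means over the cultures, their log2 changes were 0.53 and 0.50 in PAC and 0.67 and 0.85 in BAC. *Pola1*, the catalytic subunit of polymerase alpha, passed in none of the genotypes (0.57 ± 0.32, 0.47 ± 0.22, 0.52 ± 0.22 and 0.60 ± 0.22). Its samples separated by duplicate, since with 4-HT it was at 24.1 to 27.2 CPM in the 6 duplicate 1 samples of PAC, BAC and BPAC and at 29.7 to 41.6 CPM in the 6 duplicate 2 samples. With the culture as a replicate block *Pola1* rose in PAC, BAC and BPAC (edgeR adjusted p = 0.00416, 0.00312 and 0.000866). All 5 polymerase delta and epsilon genes rose in each of PAC, BAC and BPAC. *Pold1*, the catalytic subunit of polymerase delta, rose in all 4 genotypes, by 0.82 ± 0.20, 0.75 ± 0.14, 1.01 ± 0.14 and 1.04 ± 0.14. *Pole2*, a subunit of polymerase epsilon, had 0.68 ± 0.19 (adjusted p = 0.0161, not called), 0.63 ± 0.14, 1.17 ± 0.14 and 1.12 ± 0.14. When the PAC duplicate 1 cultures were left out, 0 of these 5 and 0 of the 4 primase and polymerase alpha genes passed in PAC (1 and 0 with the block). *Pold1* was then at 0.60 (edgeR adjusted p = 0.0828), *Pole2* at 0.59 (adjusted p = 0.039), *Prim1* at 0.34 and *Prim2* at 0.45.

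The clamp PCNA, its loader RFC and the single-strand binding protein RPA had 9 genes listed, of which 1 rose in AC (7 with the replicate block, where the share of all genes went from 3.00% to 7.45%), 8 in PAC, 9 in BAC and 8 in BPAC (9 with the block), with median changes of 0.52, 0.48, 0.65 and 0.79. *Pcna* rose by a log2 fold change of 0.49 ± 0.10 in PAC, 0.86 ± 0.10 in BAC and 0.92 ± 0.10 in BPAC. *Rpa2* had 0.78 ± 0.21 in AC (adjusted p = 0.013, and 0.000177 with the replicate block), 0.60 ± 0.15, 0.82 ± 0.15 and 0.88 ± 0.15, and *Rfc4* 0.55 ± 0.15 in AC (adjusted p = 0.0133, and 0.00459 with the block), 0.62 ± 0.11, 0.76 ± 0.11 and 0.97 ± 0.11. *Rfc2* moved least of the loader, with 0.28 ± 0.14, 0.34 ± 0.10, 0.41 ± 0.10 and 0.31 ± 0.10, of which PAC and BAC were called, and BPAC as well with the replicate block (adjusted p = 0.00258). Leaving out the PAC duplicate 1 cultures left 0 of the 9 called in PAC (1, *Rpa2*, with the block). *Pcna*, *Rpa2*, *Rfc4* and *Rfc2* were then at 0.37, 0.40, 0.49 and 0.20.

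Of the genes for Okazaki fragment joining and histone deposition, *Lig1* (DNA ligase I) rose in all 4 genotypes by 0.75 ± 0.15, 0.76 ± 0.10, 0.91 ± 0.10 and 0.94 ± 0.10. *Chaf1b*, a subunit of the histone chaperone CAF-1, had 0.83 ± 0.22 in AC (adjusted p = 0.0109, and 0.000911 with the replicate block), 0.97 ± 0.15, 1.15 ± 0.16 and 1.14 ± 0.16. In PAC without duplicate 1 *Lig1* and *Chaf1b* were at 0.54 and 0.67 and passed with the block only (edgeR adjusted p = 0.00441 and 0.0017). *Fen1*, the flap endonuclease, had the largest log2 fold change of any member in AC and PAC (1.30 ± 0.52, not called, and 1.22 ± 0.35, adjusted p = 0.00834, or 0.97 and 0.224 without the PAC duplicate 1 cultures), but at levels of 0.240 to 1.57 CPM over all 28 samples. Its lowest count was 6 and its mean count 23.6, the lowest of all members. *Fen1* (ENSMUSG00000024742, chr19:10199132-10204169, minus strand) overlaps *Tmem258* on the other strand, which was at 43.1 to 73.7 CPM, and whether the counting used strand is not given in the sources used here, so that reads of the pair may not have been told apart.

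Nucleotide supply was led by ribonucleotide reductase, the enzyme that makes deoxynucleotides, with *Rrm1* as its large and *Rrm2* as its small subunit. Both rose in all 4 genotypes. *Tyms*, which makes thymidylate, rose in all 4 as well (0.52 ± 0.12, 0.40 ± 0.09, 0.58 ± 0.09 and 0.79 ± 0.09), and *Tk1*, the thymidine kinase, rose in BAC and BPAC (0.61 ± 0.15 and 0.68 ± 0.16), with 0.36 ± 0.22 in AC and 0.45 ± 0.15 in PAC (adjusted p = 0.0253, and 0.000165 with the replicate block). Without the PAC duplicate 1 cultures *Rrm1*, *Rrm2*, *Tyms* and *Tk1* were at 0.48, 0.35, 0.27 and 0.34 in PAC. None of them passed with or without the block.

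At the G1/S switch the 2 cyclin E genes had changes of opposite sign. *Ccne1* was at 19.2 and 16.1 CPM in AC with EtOH and at 31.5 and 28.7 CPM with 4-HT, and rose in PAC, BAC and BPAC (0.89 ± 0.15, 1.09 ± 0.15 and 1.14 ± 0.15), with 0.77 ± 0.21 in AC (adjusted p = 0.0126, and 0.0011 with the replicate block). *Ccne2* was the single member lower with 4-HT in most cultures: 250 and 389 CPM with EtOH and 179 and 221 CPM with 4-HT in AC, and 168, 317, 137 and 195 CPM against 123, 146, 126 and 120 CPM in BAC. The EtOH values of *Ccne2* spread widely, and none of its log2 fold changes passed (-0.67 ± 0.30, -0.25 ± 0.21, -0.66 ± 0.22 and -0.66 ± 0.22 for AC, PAC, BAC and BPAC, with edgeR adjusted p = 0.132, 0.372, 0.0119 and 0.0115). With the culture as a replicate block *Ccne2* fell in BAC and BPAC (adjusted p = 0.00131 and 0.000646). *Ccne2* (ENSMUSG00000028212, chr4:11191351-11204779, plus strand) overlaps *Ints8* on the other strand, which was at 28 to 57 CPM. In all, 14 of the 51 members overlap a counted protein-coding gene on the other strand. *Cdk2*, the kinase that cyclin E activates, and *E2f1* rose in all 4 genotypes, *Cdk2* by 0.65 ± 0.16, 0.55 ± 0.11, 1.04 ± 0.11 and 1.06 ± 0.11 and *E2f1* by 0.81 ± 0.19, 0.76 ± 0.13, 0.86 ± 0.13 and 0.87 ± 0.13. Without the PAC duplicate 1 cultures *Ccne1*, *Cdk2* and *E2f1* were at 0.74, 0.42 and 0.60 in PAC, none of them called. *Ccne1* and *E2f1* passed with the block (edgeR adjusted p = 0.00343 and 0.00742).

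**Figure D3:**
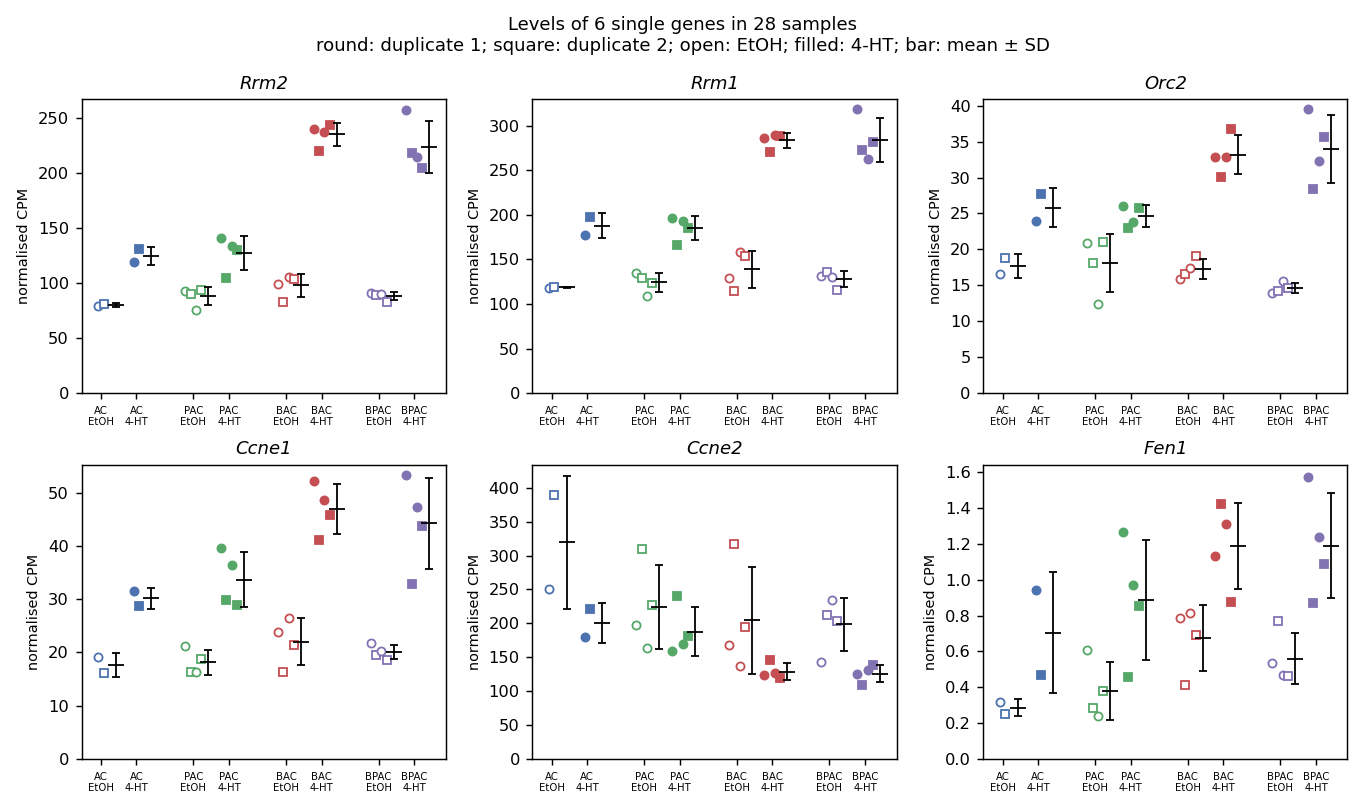
Normalised CPM (linear axis from 0) of *Rrm2*, *Rrm1*, *Orc2*, *Ccne1*, *Ccne2* and *Fen1* in the 28 samples, drawn as in the plot of the MCM genes. With 4-HT every BAC and BPAC sample lies above every AC and PAC sample for *Rrm2*, *Rrm1* and *Orc2*, and below for *Ccne2*. With EtOH these samples overlap for all of these genes. *Ccne2* is the one gene with means lower in 4-HT than in EtOH.

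To ask whether the rise of the replication genes depended on the *Braf* allele, the average change of the 2 genotypes that carry it was set against the average of AC and PAC. The median of this difference over the 51 members was 0.28 on the log2 scale, against -0.01 over all genes, and it was positive for 49 members and for 48.7% of all genes. In 43 members both BAC and BPAC had a larger change than both AC and PAC, as had 32.1% of all genes (45 members and 31.4% without the PAC duplicate 1 cultures). The fitted change was above 2-fold for 23 members in BPAC and 18 in BAC, against 3 in AC (*Mcm2*, *Mcm4* and *Fen1*, the last not called) and 1 in PAC (*Fen1*), where 6.32%, 5.27%, 3.14% and 3.59% of all genes were. The PAC count above 2-fold was 0 without the duplicate 1 cultures (3.08% of all genes). Few single genes passed the test of the difference. With edgeR 3 of the 51 members did, against 3.05% of all genes that rose more with the allele, and 26 had an unadjusted p under 0.05, all with a larger rise, against 13.9% of all genes in that direction. DESeq2 called 9 members, against 5.56% of all genes that rose more, and limma-voom 2, against 3.00%. With the culture as a replicate block 9 members passed (*Orc2*, *Cdc45*, *Pola2*, *Prim2*, *Pold2*, *Pcna*, *Rrm1*, *Rrm2* and *Cdk2*), against 6.51% of all genes, and 19 did with the block and without the PAC duplicate 1 cultures, against 6.21%.

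The largest difference was that of *Rrm2* (ENSMUSG00000020649, chr12:24708241-24714146, plus strand). With EtOH it was at 79.0 and 81.1 CPM in AC, 92.7, 90.3, 75.7 and 94.0 CPM in PAC, 98.9, 82.6, 106 and 104 CPM in BAC, and 91.3, 89.1, 90.0 and 83.1 CPM in BPAC. With 4-HT it was at 119 and 131 CPM in AC and at 141, 105, 133 and 130 CPM in PAC, but at 240, 219, 237 and 243 CPM in BAC and at 258, 218, 214 and 204 CPM in BPAC. The 4-HT samples with the allele thus all lay above those without it, while the EtOH samples overlapped. The log2 fold change of *Rrm2* in AC, PAC, BAC and BPAC was 0.64 ± 0.13, 0.53 ± 0.09, 1.26 ± 0.10 and 1.34 ± 0.10 in turn, and the difference with the allele was 0.72 ± 0.11 (SE, edgeR adjusted p = 9.92e-05). It passed with 33 of 35 other settings, those without the PAC duplicate 1 cultures included (0.81, adjusted p = 9.7e-05), and failed within duplicate 1 alone (0.66, adjusted p just above the threshold) and within duplicate 2 alone (0.78, adjusted p = 0.0423), which hold 1 sample of AC per treatment each.

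*Rrm1* (ENSMUSG00000030978, chr7:102441695-102469771, plus strand) went the same way as its partner subunit. With 4-HT it was at 178 and 198 CPM in AC and at 196, 167, 193 and 185 CPM in PAC, against 271 to 289 CPM in the 4 samples of BAC and 319, 273, 262 and 282 CPM in BPAC, with no overlap. The difference in change was 0.47 ± 0.10 (SE, edgeR adjusted p = 0.00366) and passed with 25 of 35 other settings. *Orc2* (ENSMUSG00000026037, chr1:58462771-58505109, minus strand, overlapping *Nif3l1* on the other strand) rose from 15.8, 16.6, 17.5 and 19.1 CPM to 32.9, 30.1, 32.9 and 36.7 CPM in BAC and from 14, 14.2, 15.6 and 14.6 CPM to 39.5, 28.5, 32.3 and 35.7 CPM in BPAC, against 16.5 and 18.8 CPM to 23.9 and 27.8 CPM in AC. The log2 fold change of *Orc2* was 0.55 ± 0.18 in AC (not called), 0.44 ± 0.13 in PAC, 0.94 ± 0.13 in BAC and 1.22 ± 0.13 in BPAC. Its difference of 0.59 ± 0.14 (adjusted p = 0.0067) passed with 13 of 35 other settings. In the settings where *Rrm1* and *Orc2* did not pass, their differences kept their sign.

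**Figure D4:**
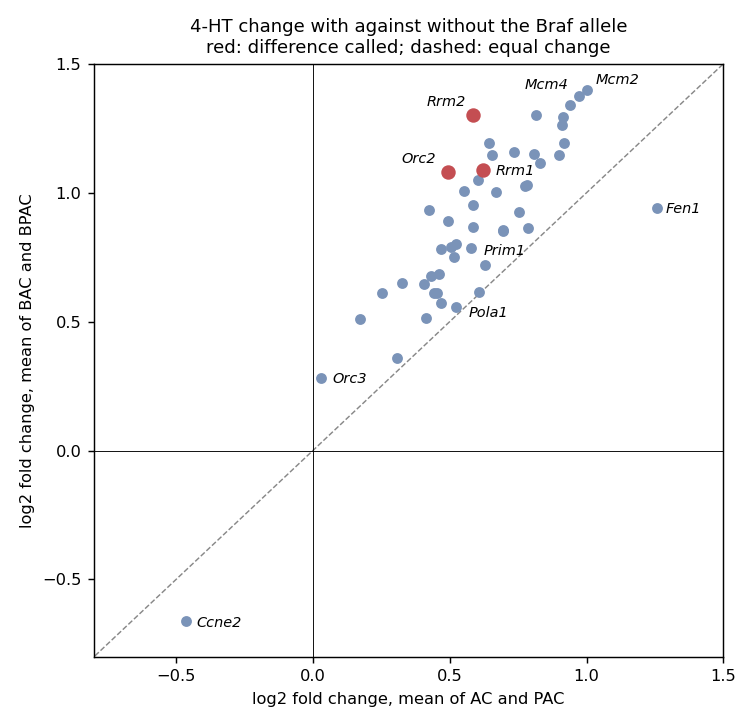
Log2 fold change from EtOH to 4-HT of each of the 51 members, as the mean of AC and PAC (x axis) and the mean of BAC and BPAC (y axis), with the line of equal change dashed. Of the 51 points, 49 lie above the line and *Fen1* and *Ccne2* lie below it, and the 3 genes whose difference passed the test (*Rrm2*, *Rrm1*, *Orc2*) are in red.

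Levels compared directly gave more calls. With 4-HT, 32 members were higher and *Ccne2* was lower where the *Braf* allele was present, against 15.6% of all genes that were higher and 14.6% that were lower. With EtOH 0 members differed with edgeR, limma-voom or DESeq2 (5 had an unadjusted p under 0.05, against 17.2% of all genes), against 0.0296% of all genes in either direction. The median difference in level over the members was 0.40 on the log2 scale with 4-HT and 0.06 with EtOH. Every 4-HT sample with the allele lay above every 4-HT sample without it for 20 members (11.7% of all genes, and 33 members and 15.6% without the PAC duplicate 1 cultures), and for 0 members with EtOH (0.0740%). The difference in 4-HT level was largest for *Rrm2* (0.86 ± 0.08, edgeR adjusted p = 1.46e-08). *E2f1* was among the 18 members that did not pass, at 0.10 ± 0.11 (edgeR adjusted p = 0.453), and so was *Gins4* at 0.02 ± 0.10 (adjusted p = 0.859). In duplicate 2 alone 9 members had a higher 4-HT level with the allele (3.83% of all genes), and without AC duplicate 1 or AC duplicate 2 there were 20 and 17 (10.4% and 10.1%).

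The median change of the members was also taken in each culture. It was 0.61 and 0.63 in the AC cultures, 0.40 to 0.86 in PAC (mean 0.59 ± 0.20 SD, n = 4), 0.78 to 0.99 in BAC (0.84 ± 0.10 SD, n = 4) and 0.80 to 1.01 in BPAC (0.91 ± 0.10 SD, n = 4). Within duplicate 2 the 4 cultures with the *Braf* allele (0.80 to 0.99) lay above the 3 without (0.40 to 0.61). Within duplicate 1 the ranges overlapped, at 0.78 to 1.01 with the allele and 0.62 to 0.86 without, and the value of 0.86 is that of PAC culture Col313, whose 4-HT sample is one of the pair described above. In PAC the duplicate 1 cultures were at 0.62 and 0.86 and the duplicate 2 cultures at 0.40 and 0.47.

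**Figure D5:**
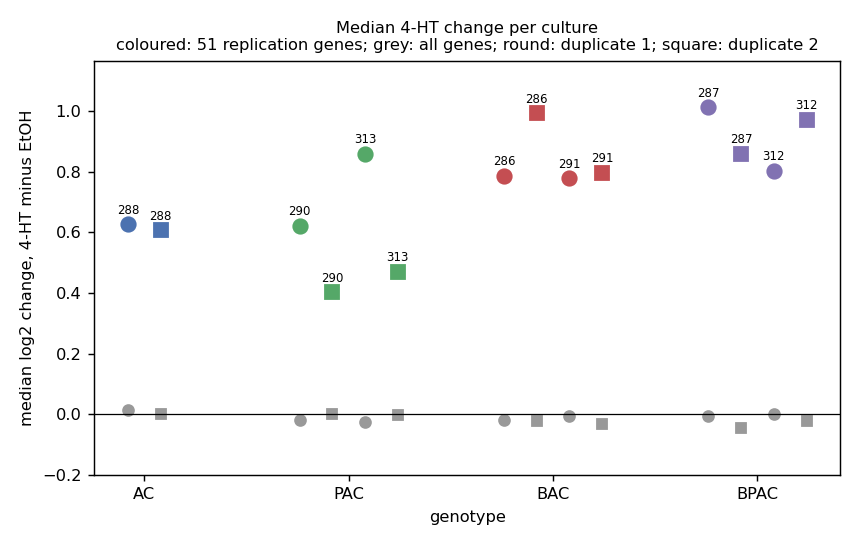
Median log2 change from EtOH to 4-HT over the 51 replication genes (colored) and over all genes (grey) in each of the 14 cultures, by genotype, with the donor number above each point, circles for duplicate 1 and squares for duplicate 2. The medians over all genes lie near 0 in every culture, and those of the replication genes lie at 0.40 to 1.01.

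For the *Trp53* allele the same contrast, PAC and BPAC minus AC and BAC, passed for 0 members with edgeR, limma-voom or DESeq2, and 0 had an unadjusted p under 0.05 with edgeR, against 1.04% of all genes. Among all genes 0.0148% passed in either direction. The median of the difference over the members was 0.03 on the log2 scale, and its range was -0.12 to 0.22. The member nearest to passing was *Orc6*, with a difference of 0.22 and an unadjusted p of 0.121 from edgeR.

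Levels per length of exon set the members in order. With EtOH the highest of the machinery in AC was *Ccne2* at 91.4 ± 28 CPM per kb (SD, n = 2), followed by *Pcna* at 33.7 ± 3.14, *Pold2* at 33.5 ± 1.98, *Rrm2* at 28.9 ± 0.53 and *Mcm6* at 27.9 ± 2.14 CPM per kb. *Pcna* and *Pold2*, and *Rrm2* and *Mcm6*, did not differ beyond their spread. At the low end stood *Fen1* at 0.118 ± 0.0195, *Gins3* at 1.86 ± 0.123 and *Pole* at 2.04 ± 0.222 CPM per kb. In BPAC with 4-HT *Pold2* (83.3 ± 10.9 CPM per kb, SD, n = 4) and *Rrm2* (80.7 ± 8.45) came first and did not differ beyond their spread, followed by *Pcna* (69.4 ± 5.52), *Mcm6* (63.9 ± 7.33) and *Mcm5* (63.3 ± 12.2), while *Ccne2* was at 35.9 ± 3.59 CPM per kb. *Rrm2* was thus level with *Pold2* after 4-HT in BPAC, where with EtOH it had been at 31.9 ± 1.32 against 42.9 ± 2.42 CPM per kb for *Pold2*.

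Other genes of the pathway were followed in 6 lists, whose counts are to be read against the 3.00%, 11.2%, 20.3% and 22.0% of all genes that rose in AC, PAC, BAC and BPAC and the 4.25%, 12.2%, 21.5% and 23.0% that fell. Of 27 other replication factors, 5, 14, 19 and 21 rose in AC, PAC, BAC and BPAC, and none fell. *Uhrf1*, which directs DNA methylation to the newly made strand, had 0.84 ± 0.17, 0.81 ± 0.12, 1.12 ± 0.12 and 1.14 ± 0.12, and *Tipin*, of the fork protection complex, 0.71 ± 0.14, 0.81 ± 0.10, 0.99 ± 0.10 and 1.17 ± 0.10, each called in all 4. Of 18 regulators of origin firing 3, 6, 13 and 14 rose and none fell, among them *Chek1*, the S-phase checkpoint kinase (1.18 ± 0.14 in BPAC), and *Skp2*, which targets CDK inhibitors for degradation (1.30 ± 0.17 in BPAC). Of 18 other genes of nucleotide synthesis 5, 11, 13 and 13 rose and 0, 0, 0 and 1 fell. *Cad*, which starts pyrimidine synthesis, rose by 0.96 ± 0.25, 1.01 ± 0.18, 1.49 ± 0.18 and 1.51 ± 0.18, and *Ctps*, CTP synthase, by 0.90 ± 0.17, 0.93 ± 0.12, 1.40 ± 0.12 and 1.58 ± 0.13.

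Of 16 genes of the E2F and Rb family 2, 4, 8 and 7 rose and 0, 2, 1 and 2 fell, the latter at or below the shares of all genes or close to them. *Mybl2*, a transcription factor that acts on late cell cycle genes, rose by 1.61 ± 0.15 in BAC and 1.57 ± 0.15 in BPAC, against 0.87 ± 0.15 in PAC and 0.80 ± 0.21 in AC (adjusted p = 0.0101, and 0.00349 with the replicate block), and *E2f6*, a repressor of the family, by 0.69 ± 0.16, 0.66 ± 0.11, 0.99 ± 0.11 and 1.11 ± 0.11. The mitosis and G2 list had 2, 10, 14 and 15 of 16 up and none down, with *Ccnb1* (cyclin B1) at 1.28 ± 0.10 and *Bub1* (spindle checkpoint) at 1.35 ± 0.12 in BPAC. Among 12 G1 regulators and CDK inhibitors 1, 2, 4 and 4 rose and 2, 3, 2 and 3 fell, of which the BPAC counts lie near the shares of all genes, and nothing about the list is read from them. *Cdkn2b*, the gene of the CDK inhibitor p15, fell in all 4 genotypes (-1.64 ± 0.19, -1.22 ± 0.13, -1.62 ± 0.13 and -1.80 ± 0.13), and *Cdk4*, one of its targets, rose in all 4 (0.75 ± 0.18, 0.80 ± 0.12, 0.93 ± 0.12 and 1.01 ± 0.12). With the replicate block the AC counts of the 6 lists were 10, 5, 6, 5, 10 and 3 up, in the order above, against 7.45% of all genes. In the E2F and Rb family 1, 3, 3 and 3 genes then fell in AC, PAC, BAC and BPAC. The shares of all genes that fell with the block are not given here, so nothing is read from these falls. Without the PAC duplicate 1 cultures no gene of the 6 lists rose in PAC, where 0.163% of all genes did. With the block 5, 1, 2, 2, 1 and 2 rose, in the order above, against 3.03% of all genes. Without the block *Cdkn2b* alone fell in PAC without these cultures (-0.99, edgeR adjusted p = 0.00881). With it 3 genes of the G1 list and 1 of the E2F and Rb family fell, again without a share of all genes beside them.

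The genes outside these lists whose log2 CPM across the 28 samples followed the median of the members most closely were *Cdca8* (Pearson's r = 0.989), *Hmgb1* (0.989), *Gar1* (0.988), *Rrs1* (0.987) and *Nip7* (0.987). These r values are descriptions over samples that share cultures and fall into EtOH and 4-HT groups. *Cdca8* encodes a subunit of the chromosomal passenger complex of mitosis, *Hmgb1* a chromatin protein, and *Gar1*, *Rrs1* and *Nip7* factors of ribosome production. Among the members themselves, r with the median was highest for *Mcm7* (0.98) and lowest for *Orc3* (0.53), *Pola1* (0.53) and *Ccne2* (-0.72).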

How the data were processed

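Bulk RNA-seq of 28 colon organoid samples was analysed from the raw read counts per gene that the authors deposited, for 13519 genes of which 13479 matched a gene symbol (mouse build GRCm38, mm10). The submitters' processing notes name Trimmomatic 0.39 and STAR 2.5.2b. The counter, its annotation and its strand setting are not given in the sources used here. Deposited counts are whole numbers without normalization, and totals ran from 20577276 to 40068718 per sample. No columns were left unused.

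The 51 members, the role groups, the pathway lists and the tests were chosen with earlier results of these data known. The 2 members of each role group with the largest mean change, those called for an allele and those with the largest rise or fall in a genotype were chosen for description by rule. Not all of them are given with a value in every genotype. Of each pathway list the 2 genes with the largest mean change were named. Other members named were chosen after their values were seen.

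Counts were scaled by TMM and fitted in edgeR 4.0.16 (R 4.3.3) with the quasi-likelihood test over 8 groups and all 28 samples, without a block, for genes with a summed count above 2 (no gene was removed by this filter). P-values were adjusted by Benjamini-Hochberg over all genes, with a threshold of 0.01, and are two-sided. CPM values are TMM-scaled, and log2 CPM used a prior count of 2. Level per length is CPM per kb of exon in GENCODE vM21. The lowest mean count of a member was 23.6. P-values measure the spread between cultures, which come from 7 mice by the labels, so that cultures of 1 mouse are not independent animals.

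The 2 treatments of a culture share donor and duplicate number, as the labels give them. Over all genes, deviations of the paired samples from their group means correlated with r over 0.1 in 14 of 14 cultures (lowest 0.245, mean 0.416 in PAC, BAC and BPAC). The AC cultures share 1 value, since deviations in a group of 2 mirror each other. Over the 51 members r ran from -0.14 (Col287 duplicate 2) to 0.70 (Col290 duplicate 1), with 0.0062 in Col312 duplicate 2. The fit with the culture as a replicate block lowered the common biological coefficient of variation from 0.191 to 0.120. The label of 1 4-HT sample of donor Col291 carries no number and was taken as duplicate 1. The labels name 1 AC donor, while the study's methods speak of more. Alternatives were limma 3.58.1 (limma-voom), DESeq2 1.42.0, other scalings, filters and prior counts, the replicate block, fits without a culture or donor, and fits without the doubtful PAC cultures. The summing of the doubtful PAC pair and the block without the PAC duplicate 1 cultures were chosen after seeing the data. Figures were drawn with matplotlib 3.10.9.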

Additional observations from a re-analysis of the deposited data

Results flagged for a closer look

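The change per culture was examined in 156 groups of 4 cultures (each member and the median over the members in PAC, BAC and BPAC), and in 13 of them 1 culture stood apart from the other 3 by Dixon's criterion, where chance gives about 1 in 20. All values are log2 changes from EtOH to 4-HT.

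In PAC the culture was Col313 duplicate 1, whose 4-HT sample is one of the doubtful pair. There *Orc2* changed by 0.93 (0.29 to 0.34 in the others), *Gins2* by 1.09 (0.62 to 0.69) and *Ccne2* by 0.057 (-0.37 to -0.30). In BAC, Col286 duplicate 2 stood apart for *Orc1* (1.29, against 0.51 to 0.62) and for the median over the members (0.994, against 0.778 to 0.797), and Col291 duplicate 1 for *Rfc1* (0.41, against 0.50 to 0.51).

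In BPAC, culture Col287 duplicate 1 was above the others for *Rfc1* (0.92, against 0.56 to 0.59) and *Lig1* (1.21, against 0.82 to 0.88). Culture Col287 duplicate 2 was above them for *Tk1* (0.90, against 0.60 to 0.65) and below for *Ccne1* (0.75, against 1.22 to 1.28). Culture Col312 duplicate 1 was below for *Pola1* (0.26, against 0.68 to 0.74) and *Chaf1b* (0.94, against 1.21 to 1.24), and Col312 duplicate 2 for *Gins4* (0.16, against 0.65 to 0.72).

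By edgeR's test of the difference itself, genotypes with and without the *Braf* allele had unequal 4-HT changes of *Rrm2* (0.72), *Orc2* (0.59) and *Rrm1* (0.47). In that direction 3.05% of all genes were called. *Orc2* and *Rrm1* did not pass in a number of the other settings, as given above.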

How the results depend on the processing

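The number of members called changed by more than 1.5 times under these settings. In AC the 16 calls became 36 at an adjusted p of 0.05, 31 with DESeq2, 37 with library size alone as the scaling, 32 with the replicate block, 34 with the duplicate number as a covariate, 34 with the replicate block and no PAC duplicate 1 cultures, 3 with AC fitted alone, 9 in duplicate 1 alone and 0 in duplicate 2 alone. Leaving out 1 culture or donor at a time gave 0 to 25 in AC (0 without either AC culture, 25 without Col287 duplicate 2 and 10 without donor Col290), 0 to 42 in PAC, 34 to 48 in BAC, 40 to 48 in BPAC, 1 to 4 for the *Braf* difference in change (1 without Col286 duplicate 1, either AC culture, or donor Col286, Col290 or Col312) and 17 to 35 for the *Braf* difference in 4-HT level. In PAC the 42 calls became 0 in duplicate 2 alone, 0 without the duplicate 1 cultures and 13 with the replicate block and without them. The 3 calls of the *Braf* difference became 13 at an adjusted p of 0.05, 9 with DESeq2, 1 with library size alone, 9 with the replicate block, 12 with the covariate, 19 with the replicate block and no PAC duplicate 1 cultures, and 0 in either duplicate alone. The 33 calls of the 4-HT level became 9 in duplicate 2 alone. The counts of the *Trp53* difference and of the EtOH level were 0 in every setting run. The replicate block changed the other counts over all 51 members by less than 1.5 times. Of the pathway lists, it moved by more the AC counts up of the other replication factors (5 to 10), the origin firing regulators (3 to 5), the E2F and Rb family (2 to 5), the mitosis and G2 list (2 to 10) and the G1 list (1 to 3). The counts down moved for the E2F and Rb family in BAC (1 to 3) and AC (0 to 1) and for other nucleotide synthesis in PAC (0 to 1). For the *Braf* difference in change the block moved the counts up of the mitosis and G2 list (4 to 10), the E2F and Rb family (1 to 3) and the other replication factors (1 to 2). The share of all genes went from 3.05% to 6.51% there. The share of all genes called up moved with these settings too, between 0.00% and 11.2% in AC and between 0.0814% and 7.27% for the *Braf* difference in change. The cause of these moves was not tested, other than that duplicates alone, AC alone and left-out cultures hold fewer samples.

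With library size alone the mean of the culture medians was 0.84, 0.81, 1.01 and 1.13 in AC, PAC, BAC and BPAC, and taking the mean over the members in place of their median gave 0.596 in AC. That scaling moved the median of all genes to 0.23, 0.20, 0.13 and 0.18, and the genes called up and down to 11.2% and 2.23% in AC, 25.1% and 5.45% in PAC, 28.7% and 15.3% in BAC, and 32.0% and 15.1% in BPAC, against 3.00% and 4.25%, 11.2% and 12.2%, 20.3% and 21.5%, and 22.0% and 23.0% with TMM. Of 8698 values of single genes, 7885 kept direction and call, 565 lost and 239 gained the call, and 9 turned. *Orc3* in PAC (-0.03) turned to 0.20 with library size alone, 0.0087 without Col290 duplicate 2 and 0.019 without Col313 duplicate 1 (-0.090 without Col313 duplicate 2). *Orc3* in AC (0.09) turned to -0.24 without Col288 duplicate 2 (0.42 without Col288 duplicate 1) and to -0.25 in duplicate 1 alone. *Orc4* in PAC (0.06) turned to -0.02 without Col290 duplicate 2, -0.080 without donor Col290 and -0.043 in duplicate 1 alone. The *Braf* difference of *Prim1* (0.21) turned to -0.045 in duplicate 1 alone.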
